A study of Drosophila melanogaster with 2 samples.

Results

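Cytosolic ribosomal protein genes encode the proteins of the ribosome that translates nuclear messages. They were taken here as every protein-coding gene of the dm6 Ensembl annotation whose symbol starts with RpL or RpS, plus sta, with the mitochondrial mRpL and mRpS genes left out. The rule gave 93 genes of 13968 protein-coding genes on the chromosome arms, 54 of the large subunit and 39 of the small subunit. The rule used names alone and no measured value. Of the 93, 5 carry a name ending in -like, and these are relatives whose place in the ribosome is less certain.

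The ribosome joins a small subunit, which reads the message, to a large subunit, which forms the peptide bonds. In Drosophila these genes are known for the Minute flies that result when 1 copy is lost, and for promoters that start transcription at a polypyrimidine (TCT) initiator in place of the usual one. The DNA-binding factors DREF and M1BP are known to bind at many of these promoters. GATAe is a GATA-family zinc-finger factor of the endoderm and midgut.

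The series mapped GATAe by chromatin immunoprecipitation with sequencing. Whole Drosophila melanogaster embryos aged 0 to 24 h carried an insertion that expresses GATAe fused to eGFP, and an antibody against GFP pulled down chromatin sheared to 200 to 800 bp. The series has 1 group of 2 biological replicates and no other genotype or treatment, so the comparisons are between genes within these embryos. The values come from all tissues at all embryonic stages together and from the tagged protein, and a control experiment that the labels name was not used here.

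The conservative peak list of the authors, which keeps peaks that both replicates rank alike, held 3047 peaks, 3032 of them on the arms. A summit is the base the authors mark as the top of a peak, and its signal is their own measure of peak strength. The median signal of those 3032 summits was 92.3, with values between 2.15 and 958. A gene is called bound below when a summit lies within 500 bp of 1 of its annotated starts. Read depth is unknown, and the exact 95% binomial (Clopper-Pearson) intervals cover counting error only. Neighbouring genes can share a peak, so genes are not independent draws.

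The stretches below show the DNA under the binding, read 5′ to 3′ on the strand of the ribosomal protein gene from the RefSeq dm6 sequence. Capitals mark the 4-base GATA core, or TATC where the core is on the other strand. They also mark the 6-base GATA word, which is the core with T or A before it and A or G after it, on either strand, and the DRE word TATCGATA, to which DREF binds and which holds a GATA core on each strand. The first 2 are the strongest peaks within 500 bp of these genes' starts and hold no GATA core within 50 bp of the summit. They are RpL34b (chr3R:9401336-9401436, minus strand) and RpS27 (chr3R:25247485-25247581, minus strand, cut short at the transcribed side).
RpL34b: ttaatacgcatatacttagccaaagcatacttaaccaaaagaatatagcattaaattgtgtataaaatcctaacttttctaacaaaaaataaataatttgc
RpS27: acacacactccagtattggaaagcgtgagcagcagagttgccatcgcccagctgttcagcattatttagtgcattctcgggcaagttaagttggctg

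The next 3 also belong to the 8 strongest and do hold cores. They are RpL32 (chr3R:30046239-30046339, minus strand), RpL23A (chr3L:1668704-1668804, minus strand) and RpS28b (chrX:9554542-9554642, plus strand). RpS20 (chr3R:20821908-20822008, plus strand) is shown with them because 1 of its pair of 6-base GATA words is centred 1 bp from the summit.
RpL32: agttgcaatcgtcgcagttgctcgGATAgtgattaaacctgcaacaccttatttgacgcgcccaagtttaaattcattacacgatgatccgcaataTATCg
RpL23A: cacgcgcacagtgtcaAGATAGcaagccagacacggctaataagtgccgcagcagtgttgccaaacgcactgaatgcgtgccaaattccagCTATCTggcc
RpS28b: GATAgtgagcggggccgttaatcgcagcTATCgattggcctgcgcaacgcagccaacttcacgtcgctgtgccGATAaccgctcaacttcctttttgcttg
RpS20: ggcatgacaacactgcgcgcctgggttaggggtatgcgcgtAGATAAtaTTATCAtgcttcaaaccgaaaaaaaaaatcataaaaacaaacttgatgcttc

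The 4 below show the DRE word at the summit. They are RpS25 (chr3R:11216317-11216417, minus strand), RpL28 (chr3L:3222961-3223061, minus strand), RpS15Aa (chrX:13337676-13337737, minus strand, cut short at the transcribed side) and RpL36A (chr2L:8042892-8042992, minus strand).
RpS25: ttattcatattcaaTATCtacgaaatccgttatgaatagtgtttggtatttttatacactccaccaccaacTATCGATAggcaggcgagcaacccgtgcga
RpL28: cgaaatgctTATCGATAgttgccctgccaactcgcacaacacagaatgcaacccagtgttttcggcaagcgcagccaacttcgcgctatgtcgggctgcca
RpS15Aa: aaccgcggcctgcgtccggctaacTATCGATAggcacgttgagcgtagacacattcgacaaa
RpL36A: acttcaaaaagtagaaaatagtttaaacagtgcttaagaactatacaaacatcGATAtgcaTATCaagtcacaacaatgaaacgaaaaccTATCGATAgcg

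The last 2 are promoters with many cores and no summit in the conservative list. RpL24-like (chr3R:11431553-11431737, minus strand) has 7 cores between 250 bases before and 50 after its start, and RpS13 (chr2L:8364633-8364854, minus strand) has 6. Only the part with at most 30 transcribed untranslated bases is printed. Both stretches are shorter than the counted window at both ends, and not every counted RpL24-like core is shown.
RpL24-like: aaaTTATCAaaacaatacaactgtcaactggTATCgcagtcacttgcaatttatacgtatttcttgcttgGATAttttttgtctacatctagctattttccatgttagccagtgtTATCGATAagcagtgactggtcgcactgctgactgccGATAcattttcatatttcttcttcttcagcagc
RpS13: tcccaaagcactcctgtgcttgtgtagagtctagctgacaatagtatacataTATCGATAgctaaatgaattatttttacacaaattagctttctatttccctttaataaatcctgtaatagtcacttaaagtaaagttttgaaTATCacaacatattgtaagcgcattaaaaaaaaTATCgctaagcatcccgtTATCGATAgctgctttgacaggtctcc

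GATAe summits stood at the starts of 28 of the 93 ribosomal protein genes, 30.1% (interval 21.0 to 40.5%). Among all protein-coding genes the share was 11.4%, or 1597 genes, and among the 13875 others it was 11.3%. The interval of the ribosomal protein genes lay above both values. With summits left out where another gene's start also lay within 500 bp, 14 of the 93 were bound, 15.1% (8.48 to 24.0%), against 6.24% of all protein-coding genes under the same rule. RpS16 was among the 14 only through the weaker of its summits, with a signal of 10.1. Counting a summit anywhere in the gene body or up to 2 kb upstream gave 31 of 93 genes, 33.3% (23.9 to 43.9%), against 19.0% of all protein-coding genes. That window was shorter for ribosomal protein genes, with a median of 3318 bp against 4164 bp over all protein-coding genes. Both sets had a median of 1 annotated start per gene.

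Large subunit genes were bound in 20 of 54 cases, 37.0% (24.3 to 51.3%), and small subunit genes in 8 of 39, 20.5% (9.30 to 36.5%). The 2 intervals overlap, so a difference between subunits was not resolved at these numbers. By chromosome, the bound genes numbered 6 of 19 on 2L, 6 of 21 on 2R, 6 of 14 on 3L, 7 of 23 on 3R and 3 of 15 on X, and RpS3A, the gene on chromosome 4, was not bound. On each of the 5 large arms the share was above that of all protein-coding genes on the same arm, which ran between 9.61 and 12.7%. On 2R (11.3 to 52.2%) and X (4.33 to 48.1%) the interval took in the value of all genes on that arm.

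The count rested on the replicates unequally, and so did the count over all protein-coding genes, with 1510 in replicate 1's own list and 990 in replicate 2's. Replicate 1's own thresholded list placed a summit at the starts of 28 of 93 ribosomal protein genes, 19 large and 9 small, where 10.8% of all protein-coding genes had one. Replicate 2's own list did so for 18 of 93 genes, 12 large and 6 small, 19.4% (11.9 to 28.9%), where 7.09% of all genes had one. Of the 28 bound genes, 22 were also in replicate 1's list, 18 in replicate 2's and 17 in both. RpL23, RpL27, RpL36A, RpL8 and RpS15Aa were in neither and are called only when the replicates are read together. RpS16 was in replicate 2's list and not in replicate 1's. Replicate 1's list added 6 genes that the conservative list does not hold, namely RpL17, RpL31, RpL4, RpS19a, RpS29 and RpS7. Replicate 2's list added 0 of the 65 unbound genes, which allows a share of up to 5.52% by the exact interval. The matching overlaps over all protein-coding genes are not given here, so these overlaps describe the lists alone.

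The 28 bound genes carried 31 summits within 500 bp of a start, because RpL23, RpS16 and RpS23 had 2 each. Their signal ran between 10.1 and 259 with a median of 112, against a median of 96.4 for the 1381 other summits within 500 bp of a protein-coding start. Of the 31, 19 lay above the list median and 6 among the strongest 25% of the list. These peaks were thus of middling strength, well below the 958 that the strongest other promoter summit reached. The 21 large subunit summits had a median of 112 and the 10 small subunit summits a median of 102.

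**Figure D1:**
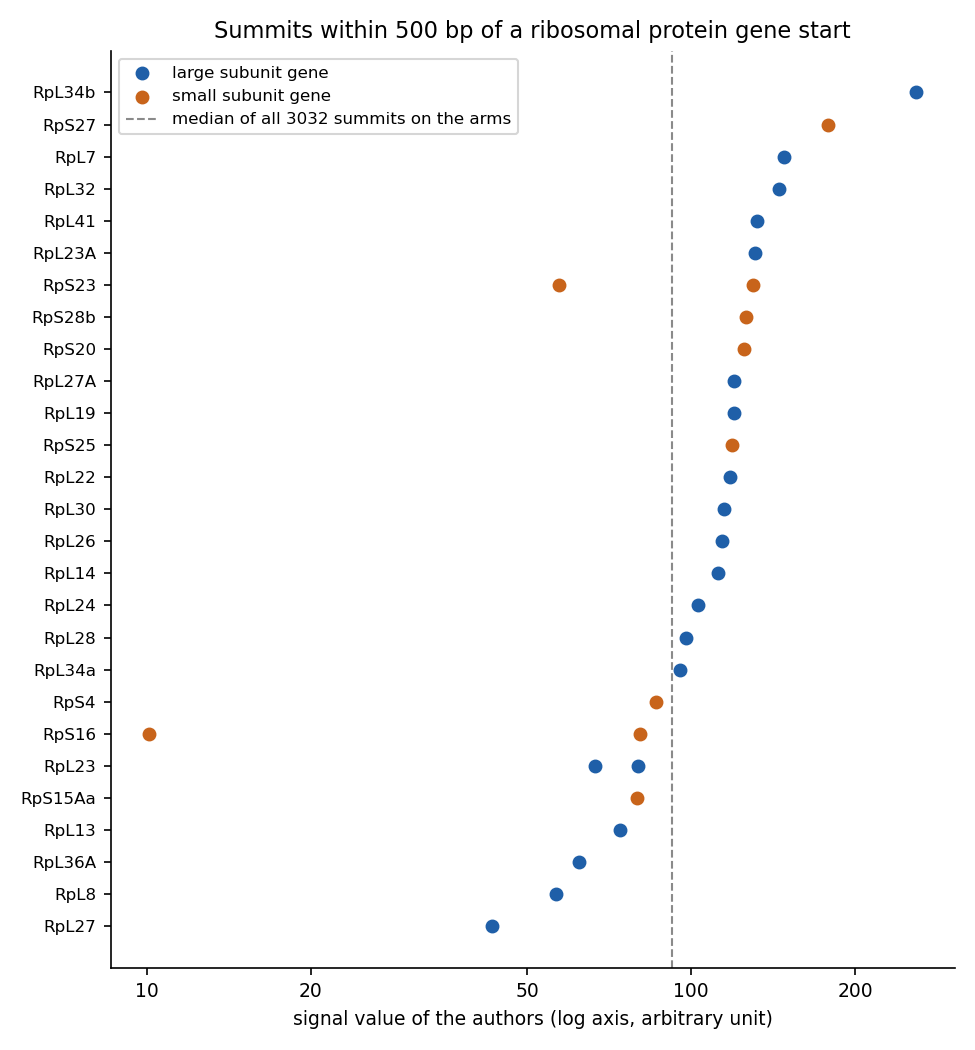
Signal of each summit within 500 bp of a start (horizontal log axis, the authors' unit) for 27 of the 28 bound genes, in order of their strongest summit; blue points are large subunit genes, orange points small subunit genes, and the dashed line is the list median of 92.3. RpL34b stands at 259 and RpS27 at 178, 23 of the 27 genes have their strongest summit between 62.1 and 148, and the weakest point is the second RpS16 summit at 10.1.

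RpL34b, which encodes a large subunit protein, had the strongest peak, with a signal of 259, rank 151 in the conservative list. Its candidate peak had a signal of 136 in replicate 1 and 110 in replicate 2, the highest of all 93 genes in both ranked lists. The summit at position 9401386 on 3R lay in intergenic sequence 160 bp upstream of the start, with a start of CG8132 within 500 bp on the other side. No GATA core lay within 50 bp of it, and none in the promoter from 250 bases before to 50 after the gene's start.

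RpS27, a zinc-finger protein of the small subunit, had the next highest signal, 178, and its candidates had 103 in replicate 1 and 69.6 in replicate 2. Its summit lay 17 bp upstream of a start at position 25247531 on 3R, near the start of Nup37, a nuclear pore gene, and held no core. RpL7 had a signal of 148, with 66.7 in replicate 1 and 72.7 in replicate 2. Its summit at position 10201069 on 2L lay 31 bp upstream of 1 start and within the 5′ UTR of a transcript from another, with a start of Ripalpha nearby, and held no core. The 3 strongest promoter peaks therefore had no GATA core at the summit, and all 3 had another protein-coding start within 500 bp.

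RpL32, known to fly workers as the reference gene rp49, had a signal of 145, with 95.8 in replicate 1 and 63.6 in replicate 2. Its summit lay at position 30046289 on 3R, 128 bp upstream, and held 2 cores but no 6-base word. RpL41, a very small basic protein of the large subunit, had 132, with 74.5 in replicate 1 and 50.1 in replicate 2. That summit, at position 24904041 on 2R, fell 106 bp upstream of RpL41 inside an intron of NaCP60E, a sodium channel gene, and held a DRE word. RpL23A, which sits near the exit of the nascent chain, had 131, with 82.1 in replicate 1 and 50.7 in replicate 2. Its summit at position 1668754 on 3L lay 100 bp upstream and held 2 of the 6-base words.

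RpS23, a protein of the decoding centre, had 3 summits. One, at position 14217119 on 2R, lay 492 bp upstream with a signal of 130, and its candidates had 58.2 in replicate 1 and 72.5 in replicate 2. A weaker summit of 57.2 lay 6 bp downstream of a start, and the strongest of the 3, with 232, lay 1207 bp upstream and outside the promoter count. That distant peak had 113 in replicate 1 and 112 in replicate 2, and 2 of the 6-base words within 50 bp. RpS28b had a signal of 126, with 79.2 in replicate 1 and 46.7 in replicate 2, at position 9554592 on X, 31 bp upstream. A total of 3 cores and no 6-base word lay at that summit, and a further summit of 85.7 lay 681 bp upstream.

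Among the other large subunit genes, RpL19 and RpL27A had signals of 120 each, RpL22 had 118, RpL30 had 115, RpL26 had 114, RpL14 had 112 and RpL24 had 103. RpL28 had 97.6 and RpL34a had 95.3. Those below the list median included RpL23 at 80.0 and 66.5, RpL13 at 74.1, RpL36A at 62.1, RpL8 at 56.4 and RpL27 at 43.0. RpL8 contributes to the peptidyl transferase centre, and RpL26 sits at the exit of the nascent chain. RpL19 and RpL24 reach across to the small subunit.

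Among the other small subunit genes, RpS20 had 125, RpS25 had 119, RpS4 had 86.3 and RpS15Aa had 79.4. RpS16 had 80.6 at a summit 47 bp upstream and 10.1 at one 192 bp downstream. RpS25 is known for its part in initiation at certain viral messages. The lowest values just inside the list, RpL8 and RpL27, had an IDR (irreproducible discovery rate, low where replicates rank a peak alike) of 0.00848 and 0.00806, where the authors' threshold lies at 0.01.

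The call also held under looser and stricter rules. Within 250 bp of a start the count stayed at 28 ribosomal protein genes, where 9.42% of all protein-coding genes had a summit, and it stayed at 28 for the gene's 5′ end alone, where 9.49% had one. Summits at or above the median signal left 19 ribosomal protein genes, where 7.02% of all genes had one. An IDR of 0.05 in the pair's ranked list gave 38 ribosomal protein genes, 24 large and 14 small, where 16.1% of all genes had a summit.

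The summits crowded close to the starts. The median distance, counted on the gene's strand, was 47 bp upstream, and the median size of the distance was 57 bp, against 125 bp for the other promoter summits. Between 100 bp upstream and 50 bp downstream lay 21 of 31 ribosomal protein summits, 67.7% (48.6 to 83.3%), against 483 of 1381 others, 35.0% (32.5 to 37.6%). The share on the upstream side was 74.2% for the ribosomal protein summits and 75.7% for the others, so the side did not set them apart. By annotation, 20 of the 31 summits were intergenic, 8 were in a 5′ UTR and 3 in an intron.

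**Figure D2:**
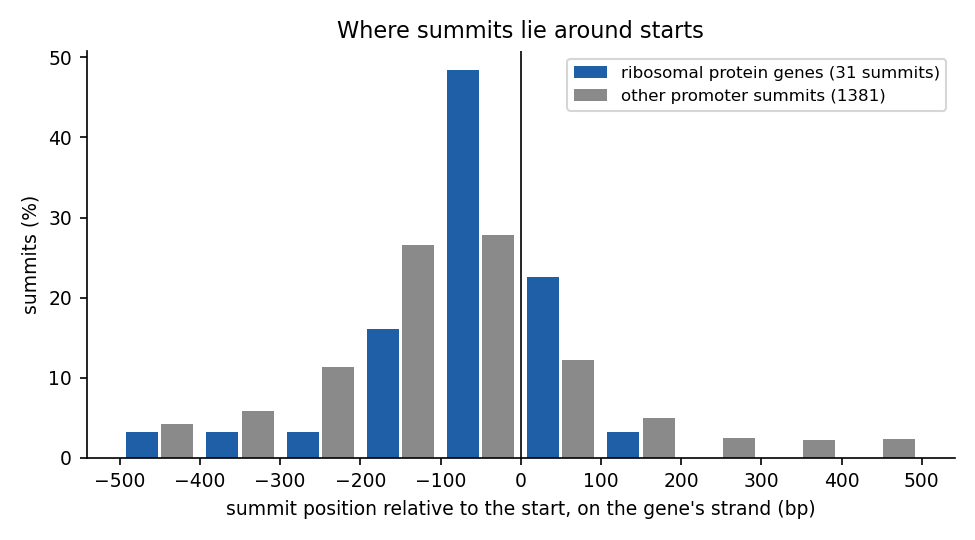
Share of summits (vertical axis, %) in 100 bp steps of distance from the start on the gene's strand (horizontal axis, bp; negative is upstream), for 31 ribosomal protein summits in blue and 1381 other promoter summits in grey. The step just upstream of the start holds 48.4% of the ribosomal protein summits and 27.8% of the others, and the 3 steps farthest downstream hold none of the ribosomal protein summits.

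Summits near the start of another gene were common, among ribosomal protein genes and other genes alike. A start of another protein-coding gene lay within 500 bp of a summit for 15 of the 28 bound genes, and the peak cannot be assigned to either gene from its position. With summits near another gene's start left out, 14 of the 28 stayed bound, and so did 857 of the 1569 other bound genes. The RpL13 summit lay 22 bp from RpL13 and 62 bp from Dref, the gene of DREF. The RpL28 summit lay 51 bp from RpL28 and 330 bp from eIF1, the gene of an initiation factor. The RpL14 summit had a start of Nelf-E nearby, a subunit of the complex that holds paused polymerase. Genes that face another start head-to-head were bound in 13 of 36 ribosomal protein cases, 36.1% (20.8 to 53.8%), and in 19.1% of other genes. Genes with no such neighbour were bound in 15 of 57 ribosomal protein cases, 26.3% (15.5 to 39.7%), and in 8.75% of other genes. In both classes the lower bound for the ribosomal protein genes lay above the value of the other genes.

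The words under the summits differed from those at other promoters. The 6-base GATA word lay within 50 bp of 6 of 31 ribosomal protein summits, 19.4% (7.45 to 37.5%), against 580 of 1381 other promoter summits, 42.0% (39.4 to 44.7%). The 4-base core, of which the 6-base word is the longer form, lay at 18 of 31, 58.1% (39.1 to 75.5%), against 70.2% (67.7 to 72.6%) of the others, and here the intervals overlap. For a core outside a DRE word the shares were 51.6% (33.1 to 69.8%) and 69.8% (67.3 to 72.2%), and these intervals overlap too. The 6-base word stayed less common at ribosomal protein summits in other windows, with 6.45% (0.791 to 21.4%) against 24.4% (22.2 to 26.8%) within 25 bp, and 35.5% (19.2 to 54.6%) against 59.4% (56.7 to 62.0%) within 100 bp. Flanking windows centred 500 bp to either side held the 6-base word in 9.68% of 62 ribosomal protein windows and 19.7% of 2762 others. For the core the flank shares were 37.1% at ribosomal protein genes and 47.1% at others. Both flank values were lower at ribosomal protein genes, but their intervals, 3.63 to 19.9% for the word and 25.2 to 50.3% for the core, take in the values of the others. In each set the word and the core were more common at summits than in that set's own flanks. For ribosomal protein genes those summit and flank intervals overlap. Whether the rise over flanks differed between the sets was not tested.

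The DRE word ran the other way. It lay within 50 bp of 7 of 31 ribosomal protein summits, 22.6% (9.59 to 41.1%), against 27 of 1381 others, 1.96% (1.29 to 2.83%). In the flanks it stood in 0 of 62 ribosomal protein windows, which allows up to 5.78% by the exact interval, and in 0.326% of 2762 others. Of the 7 summits, 5 belonged to large and 2 to small subunit genes, among them RpL41, RpL19, RpS25, RpL28, RpS15Aa and RpL36A. The centre of the word lay a median of 23 bp from the summit, between 14 and 43 bp. Within 25 bp of the summit the whole word lay at 6.45% of ribosomal protein summits (0.791 to 21.4%) and 1.01% of others (0.555 to 1.70%), where the intervals overlap. Within 100 bp it lay at 32.3% (16.7 to 51.4%) and 4.27% (3.27 to 5.48%). In RpL28 and RpS15Aa every core at the summit belonged to the DRE word, though the printed RpS15Aa stretch does not show the whole window. The other 5 also had a core outside it.

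Because DRE words lie near starts and ribosomal protein summits do too, the shares were also taken over summits between 100 bp upstream and 50 bp downstream of a start, a setting chosen after the values were seen. Here the DRE word lay at 5 of 21 ribosomal protein summits, 23.8% (8.22 to 47.2%), against 4.76% (3.04 to 7.06%) of 483 others. The 6-base GATA word lay at 1 of 21, 4.76% (0.120 to 23.8%), against 45.1% (40.6 to 49.7%) of the others. The core lay at 10 of 21, 47.6% (25.7 to 70.2%), against 74.5% (70.4 to 78.4%). A core outside a DRE word lay at 38.1% (18.1 to 61.6%), against 73.5% (69.3 to 77.4%). With position held close to the start, the intervals for both words and for the core were apart from those of the other summits. They were narrowly so for the core when those within a DRE word were counted.

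**Figure D3:**
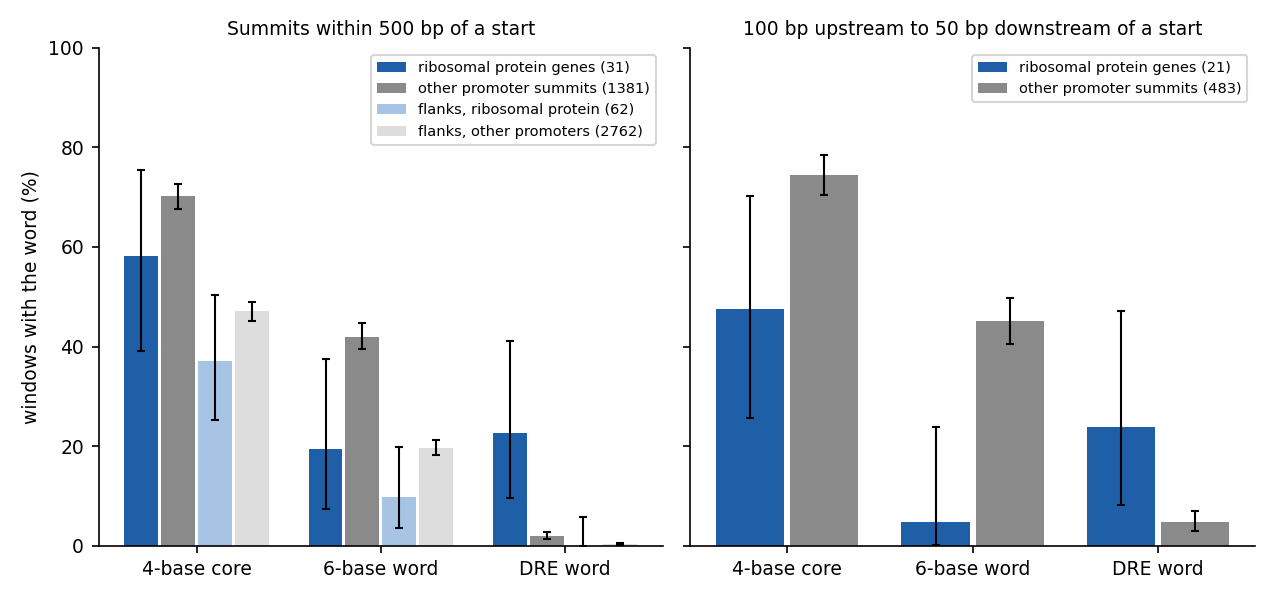
Share of windows reaching 50 bp to either side of the summit (vertical axis, %) that hold the 4-base core, the 6-base GATA word or the DRE word, for all promoter summits with their flanks (left) and for summits close to a start (right); blue is ribosomal protein genes, grey other promoters, pale colours the flanks, and bars show exact 95% intervals. The 6-base word is at 19.4% of ribosomal protein summits and 42.0% of others, and the DRE word at 22.6% and 1.96%.

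The genes with a 6-base word at the summit included RpL23A, RpS23, RpS20, RpL26 and RpL34a. The 6 summits with the word had a median signal of 120 and reached 131. The 7 DRE summits had a median of 97.6, between 62.1 and 132. The 13 summits without any core had a median of 86.3 and the widest range, 10.1 to 259, while the 18 with a core had a median of 119, between 62.1 and 145. The ranges overlap throughout, and the summits without a core include both the strongest and the weakest of the 31. The M1BP word GGTCACAC lay at 2 of 31 summits, those of RpL27A and RpL30, and at 1.16% of the others.

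A further 3 genes were occupied in the wider window alone. Of these, RpLP0-like had a signal of 119 at a summit 1138 bp upstream, in an intron of 14-3-3zeta and within 500 bp of a start of that gene.

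Below the authors' threshold the candidate peaks were common. In the ranked list of the replicate pair, which also keeps weak peaks, 72 of 93 ribosomal protein genes had a candidate within 500 bp of a start, where 55.3% of all protein-coding genes did. In replicate 1's ranked list 74 did, with 47.0% over all genes, and in replicate 2's 69 did, with 50.1% over all genes. Among the 65 unbound ribosomal protein genes, 44 had a candidate in the pair's list, 67.7% (54.9 to 78.8%), against 49.4% of the unbound other genes. In replicate 1's list 46 of the 65 had one, 70.8% (58.2 to 81.4%), against 40.1%, and in replicate 2's list 41 did, 63.1% (50.2 to 74.7%), against 43.8%. So the higher share at ribosomal protein starts was also seen among unbound genes in each replicate's ranked list.

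The nearest misses were RpS21, with an IDR of 0.0151 and a signal of 63.5 in the pair's list, RpS7 at 0.0220, RpL5 and RpS14b at 0.0225 each, and RpLP0 at 0.0227. RpL5 carries the 5S RNA into the large subunit, and RpLP0 anchors the stalk that calls in elongation factors. RpS21 had 35.5 in replicate 1 and 25.4 in replicate 2. There were 8 genes with no candidate in any ranked list: RpL10Aa, RpL37-2, RpL9, RpLP0-like, RpS10a, RpS27A, RpS3 and RpS3A. They make up 12.3% (5.47 to 22.8%) of the 65 unbound genes, and the matching share over other genes is not given here. RpS27A is made as a fusion with ubiquitin, and so is RpL40, whose best candidate had an IDR of 0.702. The gene sta, which encodes the small subunit protein also called RpSA, had 0.853. No ribosomal protein gene had a peak past the threshold that the conservative list left out.

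Per replicate, the strongest candidate of bound genes had a median signal of 59.8 in replicate 1, between 32.3 and 136, against 24.5 among the 46 unbound genes with a candidate, between 11.2 and 52.8. In replicate 2 bound genes had a median of 47.5, between 28.9 and 110, against 20.5 among 41 unbound genes, between 5.81 and 30.8. The ranges overlap in both replicates. Being bound was itself called from these replicates, so the gap describes the call and tests nothing. Over the 59 genes with a candidate in both lists Spearman's rho of the signals was 0.70, and over the 28 bound genes 0.58. The points share the 2 libraries, so these serve as a description.

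**Figure D4:**
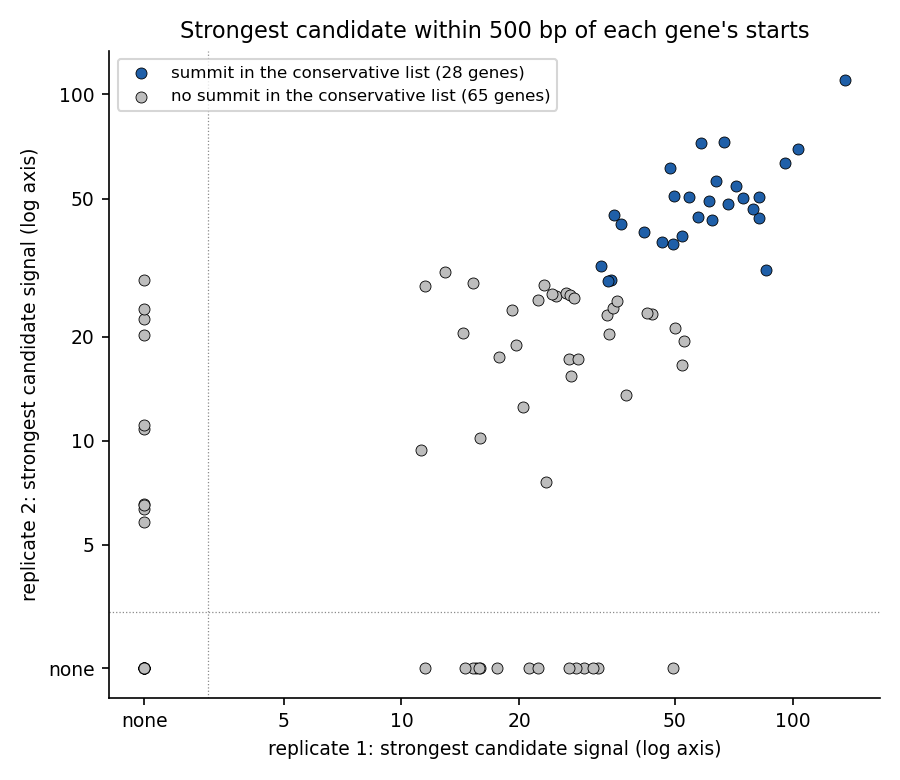
Strongest candidate signal within 500 bp of each gene's starts in replicate 1 (horizontal log axis) and replicate 2 (vertical log axis) for all 93 genes; blue points are the 28 bound genes, grey points the 65 unbound ones, and a gene with no candidate sits on the line marked none. RpL34b stands at 136 and 110, and unbound genes reach 52.8 in replicate 1 and 30.8 in replicate 2.

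Cores in the promoter sequence alone did not separate bound from unbound ribosomal protein genes, and a word so common in all promoters leaves little room to. Between 250 bases before and 50 after the start, the core stood in 26 of 28 bound promoters, 92.9% (76.5 to 99.1%), and in 61 of 65 unbound ones, 93.8% (85.0 to 98.3%), against 87.0% of all promoters. RpL24 and RpL34b were the bound genes without one. The 6-base word stood in 60.7% (40.6 to 78.5%) of bound and 52.3% (39.5 to 64.9%) of unbound promoters, against 46.7% of all promoters. Those intervals overlap, so a difference was not resolved at these numbers. Among other genes the word stood in 55.9% (53.4 to 58.4%) of bound and 45.4% (44.6 to 46.3%) of unbound promoters. The core stood in 90.8% (89.3 to 92.2%) and 86.5% (85.9 to 87.1%) of them, and both pairs of intervals were apart. Unbound promoters with the most cores were those of RpL24-like and RpS24, with 7 each, and RpS12, RpS13, RpS14a, RpS2, RpS26 and RpS7, with 6 each.

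The DRE word stood in 11 of 28 bound promoters, 39.3% (21.5 to 59.4%), and in 17 of 65 unbound ones, 26.2% (16.0 to 38.5%), against 9.36% of all promoters. The M1BP word stood in 21.4% (8.30 to 41.0%) of bound and 13.8% (6.53 to 24.7%) of unbound promoters, against 7.69% of all. Both strands were searched for all of these words. The TCT initiator was searched as CTTT on the gene's strand with its C within 10 bp of any annotated start. It was found in 25 of 28 bound genes, 89.3% (71.8 to 97.7%), and 51 of 65 unbound ones, 78.5% (66.5 to 87.7%), against 14.9% of all protein-coding genes. Taking the gene's outermost start alone gave 14 of 28 bound and 34 of 65 unbound genes, against 10.8% of all. In each case the bound and unbound intervals overlap, while both groups lay above all promoters for the DRE word and the initiator. A word match is a description of the letters and does not show that a factor sat there.

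**Figure D5:**
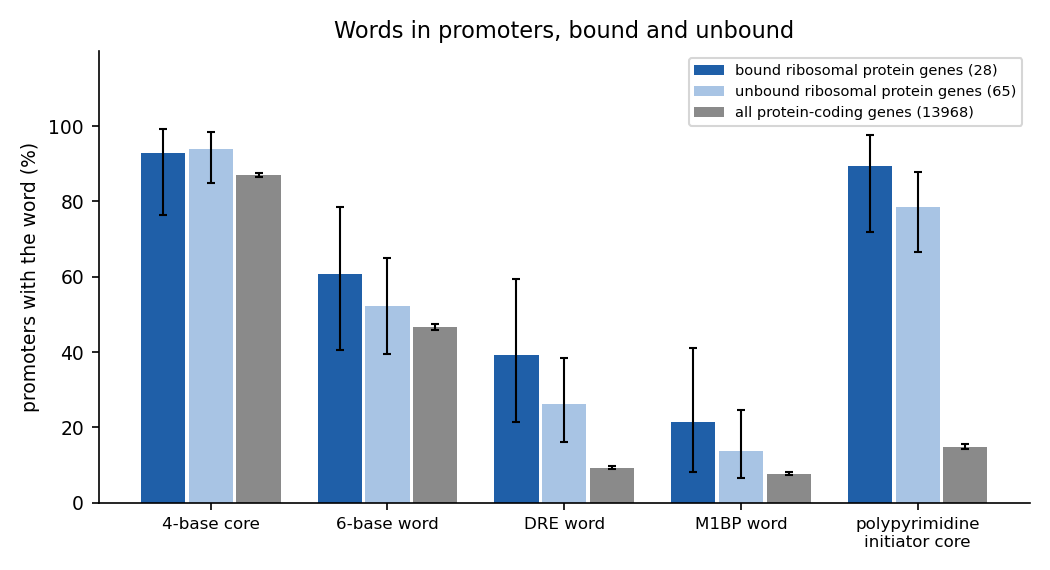
Share of promoters (vertical axis, %) that hold each word, for 28 bound ribosomal protein genes (blue), 65 unbound ones (pale blue) and all 13968 protein-coding genes (grey), with exact 95% intervals. The core is near 93% in both bound and unbound genes, and the initiator core near an annotated start is at 89.3%, 78.5% and 14.9%.

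Where a bound gene had the DRE word in its promoter, the word often fell within 50 bp of the summit. The summit window held the word in 7 of 11 such ribosomal protein genes, 63.6% (30.8 to 89.1%), against 36 of 193 other bound genes with the word, 18.7% (13.4 to 24.9%). Position was not held in this comparison, and ribosomal protein summits lay closer to starts. Neighbours that share a peak with a ribosomal protein gene may also be among the others. The remaining 4 ribosomal protein genes were RpL26, RpL27, RpL34a and RpS16. Across all their genes, ribosomal protein promoters with the word were bound in 11 of 28 cases and those without it in 17 of 65, 39.3% and 26.2%. For other genes the shares were 15.1% with and 10.9% without.

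Of the paralogous copies, 1 pair was bound at both. RpL34a and RpL34b were both bound, at 95.3 and 259. RpS15Aa was bound and RpS15Ab was not, and RpS28b was bound while RpS28a and RpS28-like were not. RpL22, RpL24 and RpL7 were bound, whereas RpL22-like, known from the testis, RpL24-like, known for ribosome production, and RpL7-like were not. In RpL10Aa and RpL10Ab, RpL37-1 and RpL37-2, RpS5a and RpS5b, RpS10a and RpS10b, RpS14a and RpS14b, and RpS19a and RpS19b, neither copy was bound. RpS5b and RpS19b are known as germline forms. None of the 5 genes named -like was bound, which at this number allows a share of up to 52.2% by the exact interval. Which copy a read belongs to can be uncertain in near-identical stretches, and the handling of such reads is not given in the sources used here.

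Other genes of translation gave a mixed picture. Translation initiation factor genes were bound in 5 of 44 cases, 11.4%, the same as the share over all protein-coding genes. These were eIF6 at 486, eIF4EHP at 379, eIF1 at 97.6, eIF5B at 68.0 and eIF2gamma at 62.0. The eIF6 protein keeps the subunits apart by binding the large one, and eIF4EHP is a cap-binding repressor. Elongation factor genes were bound in 3 of 8 cases, 37.5%, namely eEF1gamma at 181, eEF5 at 88.4 and eEF1alpha1 at 73.6. With only 8 genes, a difference from the share over all protein-coding genes was not tested. The eEF1gamma and eIF2gamma summits held a DRE word, and so did that of eIF1, which is the RpL28 summit. Of 22 regulators and ribosome production genes 3 were bound, 13.6%, namely Ns2 at 115, Dref at 74.1 and Nop56 at 66.4, and Dref shares its peak with RpL13. Mitochondrial ribosomal protein genes, whose products serve the organelle's own ribosome, serve for comparison. The cytosolic set was bound in 30.1% of cases (21.0 to 40.5%) and the mitochondrial set in 13 of 73, 17.8% (9.84 to 28.5%), and those intervals overlap. The mitochondrial set had signals of up to 724 at mRpL41 and 596 at mRpS10, beyond any cytosolic ribosomal protein gene. None of the 13 summits held a DRE word, and over the 1381 other promoter summits the share was 1.96%. With only 13 summits, a difference from the cytosolic set in this word was not resolved.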

How the data were processed

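Chromatin immunoprecipitation with sequencing was done on 2 biological replicates of 1 group. The authors deposited peak lists on dm6; which aligner and caller they used is not given in the sources used here. The deposited signal value is peak strength per peak, is the authors' own, and has its own scale in each list. The deposited score stops at 830 in the thresholded lists, an IDR of 0.0100. The deposited ranked lists give −log10 of the IDR. Peaks were called per replicate and on the pair, per the deposited record. A replicate's own list shares its reads with the pair's list, so their overlap is partly built in and is no independent check.

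Starts are those of every transcript in Ensembl release 115, and a summit is counted from 1. Sequence came from the RefSeq copy of dm6, where 99.8% of 30618 annotated start codons read ATG. Summits were counted within 500 bp of a start and in the body plus 2 kb upstream. Words were searched on both strands within 50 bp of summits and from 250 bases before to 50 after the outermost start. No test was run between groups of samples, since there is 1 group, and shares carry exact intervals. The counting steps were tested on simulated data. Python 3.11.15, numpy 2.4.6, pandas 2.3.3, scipy 1.17.1 and matplotlib 3.10.9 were used.

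Named are the bound genes with signals, the 8 strongest in full, genes occupied farther away, the 5 unbound genes with the best candidates, genes with none, and bound genes of the translation lists; the others named in the text were chosen after their values were seen. The members and lists were chosen with earlier results of these data known. Among the regulators, Tor matched the older names of more than 1 gene and was left out. Alternatives were the lists of single replicates, the pooled series-level list, stronger or merged peaks, other distances, windows and promoters, an IDR of 0.05, the -like genes left out and summits near another gene's start left out; the last 3, the DRE shares, the shares of other summits at 25 and 100 bp and the summits close to a start were chosen after the data were seen. Values of 3 genes covered by the rule are counted in every total and are not reported here by name.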

Additional observations from a re-analysis of the deposited data

How the results depend on the processing

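Of 110 values recomputed under the alternatives, 94 stayed within the limits set for no change and 16 moved. Leaving out 1 replicate, so that the other's own list is used, gave 20 to 29 occupied genes, 18 to 28 bound genes and 12 to 19 bound large subunit genes, with the low value in each case from replicate 2's list. Over all protein-coding genes the occupied share was then 12.4 to 17.5% and the bound share 7.09 to 10.8%. Peaks at or above the median signal left 20 occupied genes, against 12.1% of all genes, and 5 bound small subunit genes. Within 25 bp of summits the 6-base word fell to 6.45% and the core to 35.5%, and the DRE word to 6.45% at ribosomal protein and 1.01% at other promoter summits. Within 100 bp the 6-base word stood at 35.5% and the core at 83.9%, and the DRE word at 32.3% of ribosomal protein and 4.27% of other promoter summits. In promoters of 500 bases before to 100 after, all unbound genes held the core, 100%. An IDR of 0.05 gave 14 bound small subunit genes. Leaving out summits with another gene's start within 500 bp gave 14 bound genes, 9 large and 5 small, against 6.24% of all genes, fewer by construction. Over the list, distance and membership settings run, the DRE word lay at 13.3 to 27.6% of ribosomal protein summits and 1.30 to 2.44% of other promoter summits. No paired analysis was possible because there is 1 group. Unknown depth limits every call, and genes without a peak are not shown to be free of GATAe.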
